A study of Mus musculus with 4 samples.

Results

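Keratins and epithelial or mesothelial markers are described here in bone marrow-derived dendritic cells (BMDC) that were cultured with tumour cells of an ovarian surface epithelial line. The genes are Krt7, Krt8, Krt18, Krt19, Cdh1, Epcam, Upk3b, Wt1, Tjp1 and Msln. All probe sets annotated to these 10 mouse symbols were taken, 14 of the 45037 probe sets that are not array controls, and the 10 genes stand among 18193 genes with a probe set of their own. The genes were chosen by their signals on these same arrays, with high values of keratins in the cocultures known. Their signals are therefore a description, and no test was made on them.

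The series measured RNA on 4 Affymetrix mouse expression arrays, 1 per condition and 1 biological sample per array, so no value has a replicate error. BMDC from male C57BL/6 mice aged 6 to 8 weeks were grown for 7 days with GM-CSF at 500 U/ml, the growth factor that drives marrow progenitors towards dendritic cells. In the live coculture they were cultured with 1D8 cells, the ovarian surface epithelial line used as tumour, at 1 tumour cell to 5 BMDC. In the irradiated coculture the tumour cells were given 50 Gy beforehand, in the conditioned medium 1D8 supernatant made up 25% of the volume and no tumour cell was added, and the control BMDC met no 1D8 product. Every sample was sorted by flow cytometry on CD80, a costimulatory surface protein, before RNA extraction. 1D8 is a single cell line, and no array of 1D8 cells alone was analysed here.

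Keratins are the intermediate filament proteins of epithelia, and a filament forms from pairs of a type I and a type II chain. Simple epithelia, including the mesothelium and the ovarian surface, use KRT8 and KRT7 (type II) with KRT18 and KRT19 (type I). The mesothelium lines the body cavities and carries epithelial and mesenchymal traits together, with mesothelin (MSLN), uroplakin 3B (UPK3B) and the transcription factor WT1 as markers. E-cadherin (CDH1) and EPCAM join epithelial cells to each other, and TJP1 (ZO-1) is a scaffold under tight junctions. E-cadherin is also found on some dendritic cells, so it is not a marker of epithelium alone.

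Values are signals, 1 per probe set on a linear scale, which combine the matched and mismatched probes of the set. Signals of different probe sets are not compared with each other as levels. Signals below a floor of 44.3, the median of all signals on the 4 arrays, were raised to the floor before a ratio was taken. A ratio in which 1 signal lay under the floor is a bound, written "at least". Higher and lower are used of ratios of at least 2-fold where genes are counted, each gene being read at its brightest probe set.

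The BMDC label was checked against dendritic and myeloid markers. All 20 dendritic and myeloid markers exceeded the floor on every array, among them the leukocyte phosphatase Ptprc and the integrin Itgax. Flt3 and Zbtb46 lay near the floor. Flt3 had signals of 58.7 in the live and 46.7 in the irradiated coculture, 73.2 with conditioned medium and 45.5 in control BMDC. Zbtb46 had 63.1, 58.5, 56.5 and 56.1 on the same arrays. The summed signal of the 20 was 63497 in the live and 69333 in the irradiated coculture, 73110 with conditioned medium and 77580 in control BMDC. Of the 20, 2 were higher and 1 lower than the control with live tumour cells, 3 higher with irradiated ones and 2 higher with conditioned medium. Cd80, the gene of the protein used for the sort, had signals of 378.2 in the live and 325.8 in the irradiated coculture, 201.3 with conditioned medium and 85.5 in control BMDC, and is not independent of the gate. Itgam, an integrin gene of myeloid cells, was 2.74-fold higher than the control in the live and 3.54-fold higher in the irradiated coculture. With conditioned medium Itgam was 2.64-fold higher. Cd86, a costimulatory ligand gene, was 1.57-fold higher in the live and 2.28-fold higher in the irradiated coculture at its brightest probe set. Its other probe set gave log2 ratios of 0.01 in the live and -0.20 in the irradiated coculture. No direction is therefore given for Cd86, which is among the 3 counted as higher by its brightest probe set only. H2-Ab1, an MHC class II chain, was 2.03-fold lower in the live and 1.95-fold lower in the irradiated coculture. Between 58.8% and 62.5% of all genes exceeded the floor. Median log2 ratios of the genes above the floor on all arrays lay between -0.05 and 0.00 in every comparison.

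Of the 10 genes, the live coculture had 7 at least 2-fold above the control and none below it, where 3.36% of all genes were higher and 2.23% were lower. The irradiated coculture had 8 above and none below the control, against 3.47% higher and 2.25% lower among all genes. In the conditioned medium none was higher and none lower, against 2.30% and 1.41% of all genes. The median log2 ratio of the 10 genes to the control was 2.14 in the live and 2.27 in the irradiated coculture and 0.00 with conditioned medium. Over all genes it was 0.00 in each of the 3. The 3 comparisons share the control array, and the counts reflect how the genes were chosen. In bulk RNA, fewer cells of a type and less RNA per cell cannot be told apart, nor can tumour cells that passed the CD80 sort be told apart from BMDC that expressed these genes.

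**Figure D1:**
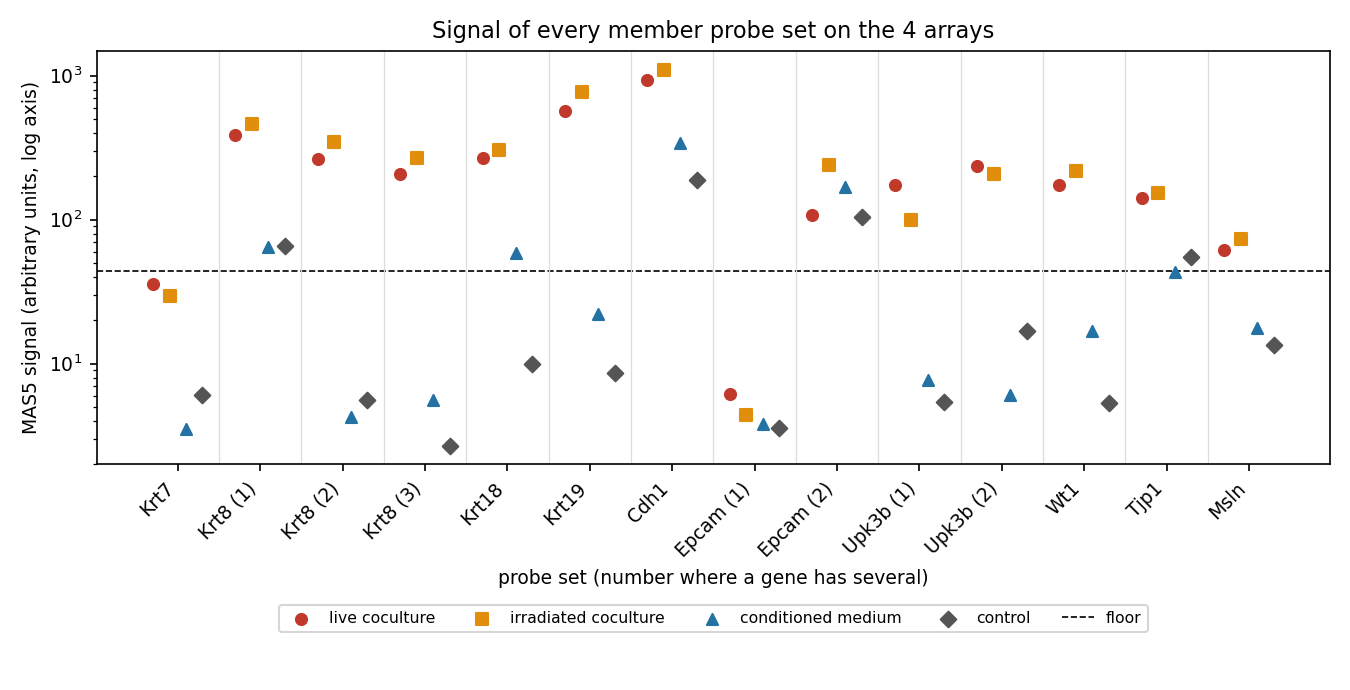
Signal (log axis) of each of the 14 probe sets on the 4 arrays, with the floor of 44.3 as a dashed line. Both coculture points lie above the conditioned medium and control points for 13 of the 14 probe sets, the exception being Epcam (2). The 13 include Krt7 and the dimmer probe set of Epcam, which are under the floor on all 4 arrays, so their order is not read as a difference. At least 2-fold higher than the control on both coculture arrays were 10 probe sets, which belong to 7 genes. Among all 18193 genes, read at their brightest probe set, 432 (2.37%) were higher on both. The genes were chosen by their signals on these arrays. No share of all probe sets with both coculture signals above the other signals is given.

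Krt19, a type I keratin without the tail domain of other keratins, was high in both cocultures and under the floor elsewhere. Its probe set 1417156_at had a signal of 569.7 in the live and 767.4 in the irradiated coculture, 22.2 with conditioned medium and 8.6 in control BMDC. The groups with and without tumour cells lay far apart. The ratio to the control was at least 12.9-fold in the live and at least 17.3-fold in the irradiated coculture, and the ratios to the conditioned medium have the same bounds.

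Krt18, the type I chain that pairs with KRT8, had signals of 269.0 in the live and 304.8 in the irradiated coculture, 58.3 with conditioned medium and 9.9 in control BMDC (1448169_at). The conditioned medium signal was above the floor and the control signal was not. Krt18 was at least 6.07-fold higher than the control in the live coculture and at least 6.88-fold in the irradiated coculture, and at least 1.32-fold in the conditioned medium. Against the conditioned medium, where both signals were measured, it was 4.61-fold higher in the live and 5.23-fold higher in the irradiated coculture.

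Krt8, the type II partner, has 3 probe sets, and all 3 separated the cocultures from the other arrays. The brightest, 1420647_a_at, gave 386.8 in the live and 458.0 in the irradiated coculture, 64.1 with conditioned medium and 66.1 in control BMDC. Its ratio to the control was 5.85-fold in the live and 6.93-fold in the irradiated coculture, and the conditioned medium and control signals were close to each other, at a log2 ratio of -0.04. The probe set 1423691_x_at gave 264.5 in the live and 344.4 in the irradiated coculture, 4.3 with conditioned medium and 5.6 in control BMDC. The probe set 1435989_x_at gave 208.5, 269.4, 5.6 and 2.7 on the same arrays. These 2 were under the floor without tumour cells, so their ratios to the control are bounds, at least 5.97-fold and 4.71-fold in the live and at least 7.77-fold and 6.08-fold in the irradiated coculture. The suffix _x_at marks probe sets of which some probes may also match other transcripts.

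Krt7, the other type II chain, stayed under the floor on every array. Its signal was 35.9 in the live and 29.4 in the irradiated coculture, 3.5 with conditioned medium and 6.1 in control BMDC (1423952_a_at). The coculture signals were again the higher ones, but no ratio is given for signals under the floor. With the floor lowered to the 25th percentile of all signals, 12.9, the log2 ratio to the control would be at least 1.48 in the live and at least 1.19 in the irradiated coculture.

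Krt8 and Krt18 are next to each other on mouse chromosome 15 in the RefSeq annotation, where Krt7 also lies, and Krt19 lies on chromosome 11 between Krt15 and Krt9. RefSeq promoter windows (GRCm38.p6) were found for 6 of the 10 genes, Krt7, Krt8, Krt18, Epcam, Upk3b and Tjp1. The 250 bases before the annotated start are shown for the partner genes Krt8 and Krt18, which were higher together, for Upk3b, which was also higher, and for Krt7, which stayed under the floor. They are written 5′ to 3′ on the gene's strand. Capitals mark the motifs that were searched on both strands: the E-box CAGGTG or CACCTG, to which the Snail and ZEB repressors of epithelial genes can bind, the GC box GGGCGG or CCGCCC, the TATA box TATAAA or TTTATA, and the CCAAT box CCAAT or ATTGG. The windows are chr15:102004343-102004592 on the minus strand (Krt8), chr15:102027966-102028215 on the plus strand (Krt18), chr5:136038246-136038495 on the plus strand (Upk3b) and chr15:101412153-101412402 on the plus strand (Krt7).
Krt8: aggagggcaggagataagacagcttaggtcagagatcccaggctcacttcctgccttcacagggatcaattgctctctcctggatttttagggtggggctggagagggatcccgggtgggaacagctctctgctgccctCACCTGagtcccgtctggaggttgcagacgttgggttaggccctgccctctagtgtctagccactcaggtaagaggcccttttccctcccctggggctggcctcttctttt
Krt18: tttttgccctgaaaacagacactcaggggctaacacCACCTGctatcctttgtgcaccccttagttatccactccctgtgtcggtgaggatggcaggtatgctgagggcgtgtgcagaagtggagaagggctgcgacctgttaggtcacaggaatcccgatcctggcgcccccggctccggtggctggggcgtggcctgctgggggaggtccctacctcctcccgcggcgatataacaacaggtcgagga
Upk3b: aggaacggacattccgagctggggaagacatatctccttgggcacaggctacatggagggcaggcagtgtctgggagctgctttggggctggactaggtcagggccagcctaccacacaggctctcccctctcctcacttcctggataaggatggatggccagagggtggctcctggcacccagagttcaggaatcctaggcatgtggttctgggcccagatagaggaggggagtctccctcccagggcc
Krt7: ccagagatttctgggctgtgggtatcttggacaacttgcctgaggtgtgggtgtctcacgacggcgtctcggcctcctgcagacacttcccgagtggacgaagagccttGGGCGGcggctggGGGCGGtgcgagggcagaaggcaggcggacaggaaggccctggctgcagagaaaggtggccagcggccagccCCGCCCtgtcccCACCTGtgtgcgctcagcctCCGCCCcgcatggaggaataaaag
The E-box letters were present in 4 of the 6 windows (Krt7, Krt8, Krt18 and Epcam), against 17.2% of 32851 RefSeq windows of the same length. CACCTG began 111 bases before the start of Krt8, 214 before that of Krt18 and 44 before that of Krt7. The window of Upk3b held none of the searched motifs. GC boxes were in 3 of the 6 windows (Krt7, Epcam and Tjp1), against 32.7% of all windows. The TATA and CCAAT letters were in none of the 6, against 12.4% and 33.8% of all windows. A match in these windows is a description of letters, and it was shared by Krt8 and Krt18, which were higher in the cocultures, and by Krt7, which did not exceed the floor.

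Cdh1, the gene of E-cadherin, differed from the keratins in being well above the floor on all 4 arrays. Its signal was 930.5 in the live and 1102 in the irradiated coculture, 338.0 with conditioned medium and 189.5 in control BMDC (1448261_at). The order was both cocultures above the conditioned medium, and the conditioned medium above the control. Cdh1 was 4.91-fold higher than the control in the live and 5.82-fold higher in the irradiated coculture, and 1.78-fold higher in the conditioned medium, which is under the threshold. Against the conditioned medium the ratios were 2.75-fold in the live and 3.26-fold in the irradiated coculture.

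Tjp1, the tight junction scaffold, had signals of 142.0 in the live and 153.7 in the irradiated coculture, 43.3 with conditioned medium and 55.2 in control BMDC (1417749_a_at). It was 2.57-fold higher than the control in the live and 2.78-fold higher in the irradiated coculture. The conditioned medium signal lay just under the floor, and the control signal just above it.

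Epcam, an adhesion molecule of most simple epithelia, did not follow the keratins. The probe set 1416579_a_at had signals of 6.2 in the live and 4.4 in the irradiated coculture, 3.8 with conditioned medium and 3.6 in control BMDC, all under the floor. The brighter 1447899_x_at gave 107.2 in the live and 239.0 in the irradiated coculture, 168.5 with conditioned medium and 103.8 in control BMDC. By this probe set Epcam was 2.30-fold higher than the control in the irradiated coculture, where it was counted as higher, and 1.03-fold in the live coculture. The live coculture was below the conditioned medium, so this probe set did not separate samples with and without tumour cells. Averaged over both probe sets, the log2 ratio of Epcam in the irradiated coculture was 0.60. With such means 7 genes were counted as higher there, against 2.62% of all genes.

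The mesothelial markers Upk3b and Wt1 were under the floor on both arrays without tumour cells. Upk3b, a membrane plaque protein, had signals of 237.0 in the live and 207.9 in the irradiated coculture, 6.1 with conditioned medium and 16.9 in control BMDC at 1454881_s_at. At 1434237_at the signals were 174.8 in the live and 98.9 in the irradiated coculture, 7.7 with conditioned medium and 5.4 in control BMDC. At the brighter probe set Upk3b was at least 5.35-fold higher than the control in the live and at least 4.69-fold in the irradiated coculture. The dimmer one gave at least 3.95-fold and at least 2.23-fold.

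Wt1, a zinc finger transcription factor of the mesothelium, ovarian surface and kidney, had signals of 174.3 in the live and 218.6 in the irradiated coculture, 17.0 with conditioned medium and 5.3 in control BMDC (1425995_s_at). It was at least 3.93-fold higher than the control in the live and at least 4.93-fold in the irradiated coculture. Msln, which encodes a surface protein of mesothelium and of ovarian tumours, was much closer to the floor. Its signals were 61.2 in the live and 73.5 in the irradiated coculture, 17.8 with conditioned medium and 13.4 in control BMDC (1460238_at). Only the coculture signals exceeded the floor, and the bounds of at least 1.38-fold in the live and at least 1.66-fold in the irradiated coculture did not reach the threshold. With the floor lowered to the 25th percentile the log2 ratio of Msln to the control was 2.19 in the live and 2.46 in the irradiated coculture. The counts of higher genes there became 9 and 10 of 10. The share of all genes that were higher also rose with this floor, to 8.04% in the live and 7.67% in the irradiated coculture.

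**Figure D2:**
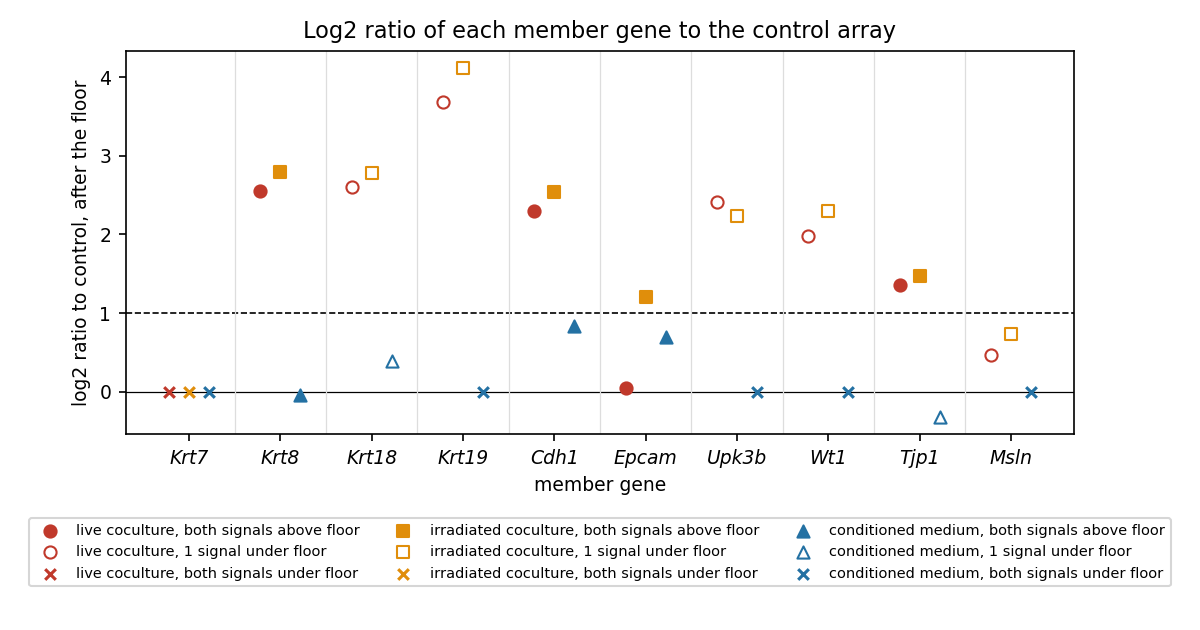
Log2 ratio of each gene to the control after the floor, at the brightest probe set, with the 2-fold threshold dashed; open points are bounds in which 1 signal lay under the floor, and crosses have both signals under it. The cocultures exceed the threshold for 7 genes in common, while no conditioned medium point reaches it.

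Set against the conditioned medium, the same 7 genes were at least 2-fold higher in each coculture (Krt8, Krt18, Krt19, Cdh1, Upk3b, Wt1 and Tjp1). Relative to conditioned medium, 1.75% of all genes were higher and 1.14% lower in the live coculture, and 1.95% and 1.24% in the irradiated one. The pattern of at least 2-fold above both the control and the conditioned medium on both coculture arrays was shown by 173 genes, 0.951% of all. Krt19, Upk3b, Wt1 and Msln were above the floor on both coculture arrays and at or under it on the other arrays, as were 271 genes in all, 1.49%.

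The irradiated coculture was above the live coculture for most of the genes, by small ratios. Of the 7 genes higher than the control in both cocultures, 6 had the higher signal in the irradiated coculture, with a median log2 ratio of irradiated over live of 0.24 and a range from -0.19 to 0.43. Among all 432 genes higher in both cocultures, 2.37% of all genes, 263 (60.9%) did so, with a median of 0.09. Krt19 was 1.35-fold higher in the irradiated than in the live coculture, Wt1 1.25-fold, Krt8 and Cdh1 1.18-fold each, Krt18 1.13-fold and Tjp1 1.08-fold. Upk3b went the other way at both probe sets, 1.14-fold lower at the brighter and 1.77-fold lower at the dimmer. Only Epcam passed 2-fold, at its probe set 1447899_x_at (2.23-fold higher), where 0.302% of all genes were higher and 0.368% lower. The SD of a log2 ratio between these arrays, judged from the 2538 genes that had 2 probe sets over the floor throughout, was 0.21. It covers the disagreement of probe sets on the same arrays and no difference between cultures.

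**Figure D3:**
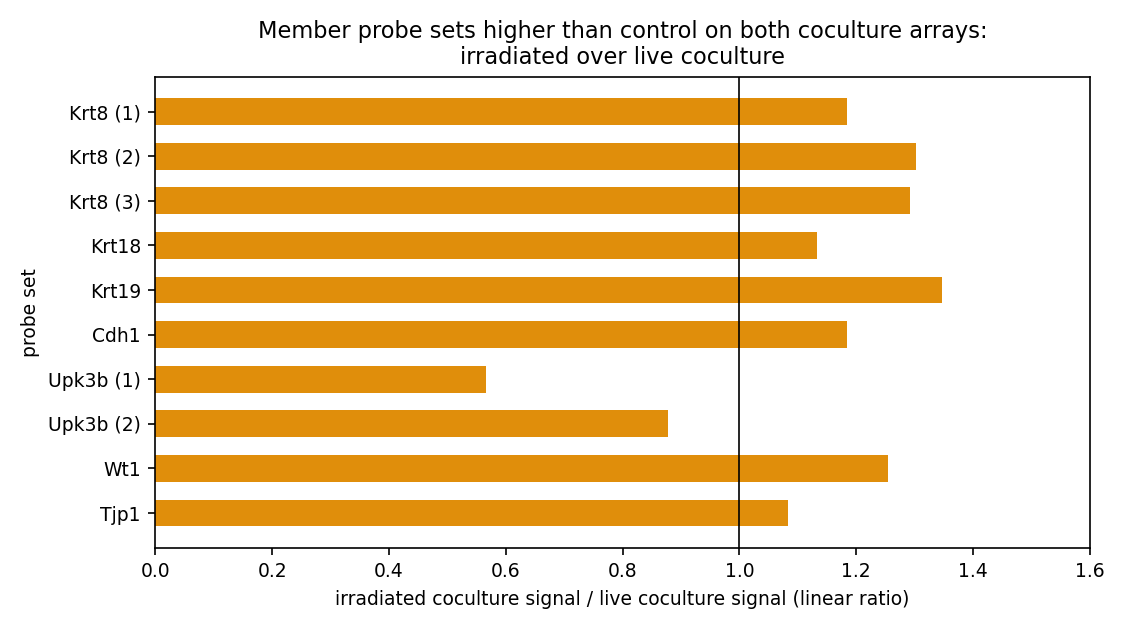
Ratio of the irradiated to the live coculture signal (linear axis from 0) for the 10 probe sets that were at least 2-fold higher than the control on both coculture arrays. The 8 bars of Krt8, Krt18, Krt19, Cdh1, Wt1 and Tjp1 end between 1.08 and 1.35, and both Upk3b bars end below 1.

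The remaining keratins did not share the pattern. Of 44 other keratin genes on the array, 28 were under the floor on all 4 arrays. Only Krt6a, a type II keratin of stratified epithelia and wounds, was 2-fold higher than the control in the live coculture, and none was 2-fold apart in the irradiated coculture. With conditioned medium Krt80, another type II keratin, was 2.31-fold higher than the control, with signals of 80.2 in the live and 75.8 in the irradiated coculture, 123.1 with conditioned medium and 53.3 in control BMDC. Krt6a had signals of 106.3 in the live and 47.7 in the irradiated coculture, 61.4 with conditioned medium and 39.9 in control BMDC, and its other 2 probe sets gave -0.08 and 0.00 as live coculture log2 ratios. Of 13 filament partners and regulators, 1 was higher in both cocultures, the small heat shock protein gene Hspb1 (2.43-fold in the live and 4.63-fold in the irradiated coculture). Vim, the intermediate filament gene of mesenchymal and blood cells, differed little, with signals of 8936 in the live and 10054 in the irradiated coculture, 8888 with conditioned medium and 9501 in control BMDC.

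Most other epithelial adhesion and junction genes were dim or differed little. Of 33 measured, 12 were under the floor on all arrays, 4 were higher than the control with live tumour cells, 5 with irradiated ones and 1 with conditioned medium, and none was lower. Dsg2, a desmosomal cadherin, had signals of 90.9 in the live and 100.5 in the irradiated coculture, 43.6 with conditioned medium and 25.3 in control BMDC, at least 2.05-fold and at least 2.27-fold higher in the cocultures. F11r, a tight junction adhesion molecule also made by leukocytes, was 2.74-fold higher in the live and 2.96-fold higher in the irradiated coculture. Lama5, a laminin chain of basement membranes, was at least 2.56-fold and at least 3.90-fold higher in the same order. Nectin2, an adhesion molecule also found on myeloid cells, was 2.90-fold and 3.30-fold higher in the cocultures and 2.47-fold higher in the conditioned medium. The median log2 ratio of the list was 0.00 in all 3 comparisons, as for all genes.

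Among 21 transcription and splicing regulators of epithelial and mesenchymal state, none was 2-fold apart from the control in the live coculture. Gata6, a transcription factor gene of mesoderm and endoderm, was at least 2.60-fold higher in the irradiated coculture, with signals of 87.0 in the live and 115.1 in the irradiated coculture, 49.9 with conditioned medium and 35.6 in control BMDC. The epithelial regulator Grhl2, chosen for mention after its values were seen, had 128.5, 108.1, 118.0 and 119.8 on the same arrays. Zeb1 and Zeb2, repressors of Cdh1, were lower with conditioned medium at their brightest probe sets and were also named after their values were seen. Zeb2 had signals of 548.6 in the live and 648.0 in the irradiated coculture, 543.0 with conditioned medium and 1092 in control BMDC at its brightest probe set, a log2 ratio of -1.01 for conditioned medium over control. Its 4 other probe sets gave 0.12, 0.24, 0.34 and 1.10 in that comparison, and those of Zeb1 gave 0.00, 0.12 and 0.00 beside -1.05 at its brightest, so no direction is given for either gene.

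Of 20 other mesothelial and ovarian surface markers, 4 were higher with live tumour cells and 3 with irradiated ones at their brightest probe sets. None was higher with conditioned medium, where Pdpn, the gene of the membrane mucin podoplanin, was lower. Tm4sf1, which encodes a tetraspanin-like membrane protein, had signals of 788.6 in the live and 1212 in the irradiated coculture, 22.2 with conditioned medium and 3.2 in control BMDC, at least 17.8-fold and at least 27.4-fold higher. Its other 2 probe sets gave log2 ratios of 0.28 and 0.00 for the live coculture and 0.00 for the irradiated one. Clu, which encodes the secreted chaperone clusterin, was 2.72-fold and 3.75-fold higher in the cocultures, and all 4 of its probe sets were above 2-fold in both. Amhr2, the receptor of anti-Müllerian hormone, was 3.32-fold and 2.30-fold higher at its brightest probe set. Gpm6a, a membrane glycoprotein of neurons and mesothelium, was at least 2.30-fold higher in the live coculture and at least 1.80-fold in the irradiated coculture. Cpe, the gene of carboxypeptidase E, was not counted, as its brightest probe set 1439437_x_at had log2 ratios of -0.28 in the live and 0.75 in the irradiated coculture. Its other probe set, 1415949_at, had signals of 315.1 in the live and 593.2 in the irradiated coculture, 17.2 with conditioned medium and 1.6 in control BMDC, log2 ratios to the control of at least 2.83 and at least 3.74.

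Some fibroblast and matrix markers were also higher on the coculture arrays. Of 20 such genes, read at their brightest probe sets, 5 were higher with live tumour cells, 6 with irradiated ones and none with conditioned medium. None was lower, and 3.36%, 3.47% and 2.30% of all genes were higher. The median log2 ratio of the list was 0.00 in the live and 0.00 in the irradiated coculture, as for all genes, and 0.03 with conditioned medium. Their summed signal was 16104 in the live and 18419 in the irradiated coculture, 12598 with conditioned medium and 7187 in control BMDC. Most of that sum came from Fn1, the fibronectin gene, and Thbs1, the gene of the matrix protein thrombospondin 1, and without them it was 1710 in the live and 1807 in the irradiated coculture, 1042 with conditioned medium and 1056 in control BMDC. Thbs1 had signals of 7282 in the live and 8338 in the irradiated coculture, 4458 with conditioned medium and 2296 in control BMDC. It was 3.17-fold higher than the control in the live and 3.63-fold higher in the irradiated coculture. The other probe set of Thbs1 gave log2 ratios of 3.07 in the live and 3.55 in the irradiated coculture and 1.92 with conditioned medium. That of Fn1 gave 3.45, 3.43 and 1.54 in the same order. With conditioned medium these dimmer probe sets thus exceeded 2-fold, though neither gene was counted there. Sparc, a matrix glycoprotein gene, was 4.58-fold higher in the live and 6.52-fold higher in the irradiated coculture at the probe set read. In the same order 1416589_at gave log2 ratios of at least 3.18 and at least 3.23, and 1458204_at gave -0.03 and -0.35. Cald1, an actin-binding protein gene of contractile and mesenchymal cells, was 5.56-fold and 4.43-fold higher in the live and the irradiated coculture. Dcn, a collagen-binding proteoglycan gene, was 2.30-fold and 3.71-fold higher. The fibroblast collagen gene Col1a1, named after its values were seen, reached only 58.8 and 54.4 in the cocultures. Of 10 endothelial markers none was higher on any treated array, and Vwf, the gene of von Willebrand factor, was lower on all 3, with signals of 71.7 in the live and 74.7 in the irradiated coculture, 150.6 with conditioned medium and 438.5 in control BMDC. The part that fibroblast or endothelial cells had in the values of the keratins was not tested.

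**Figure D4:**
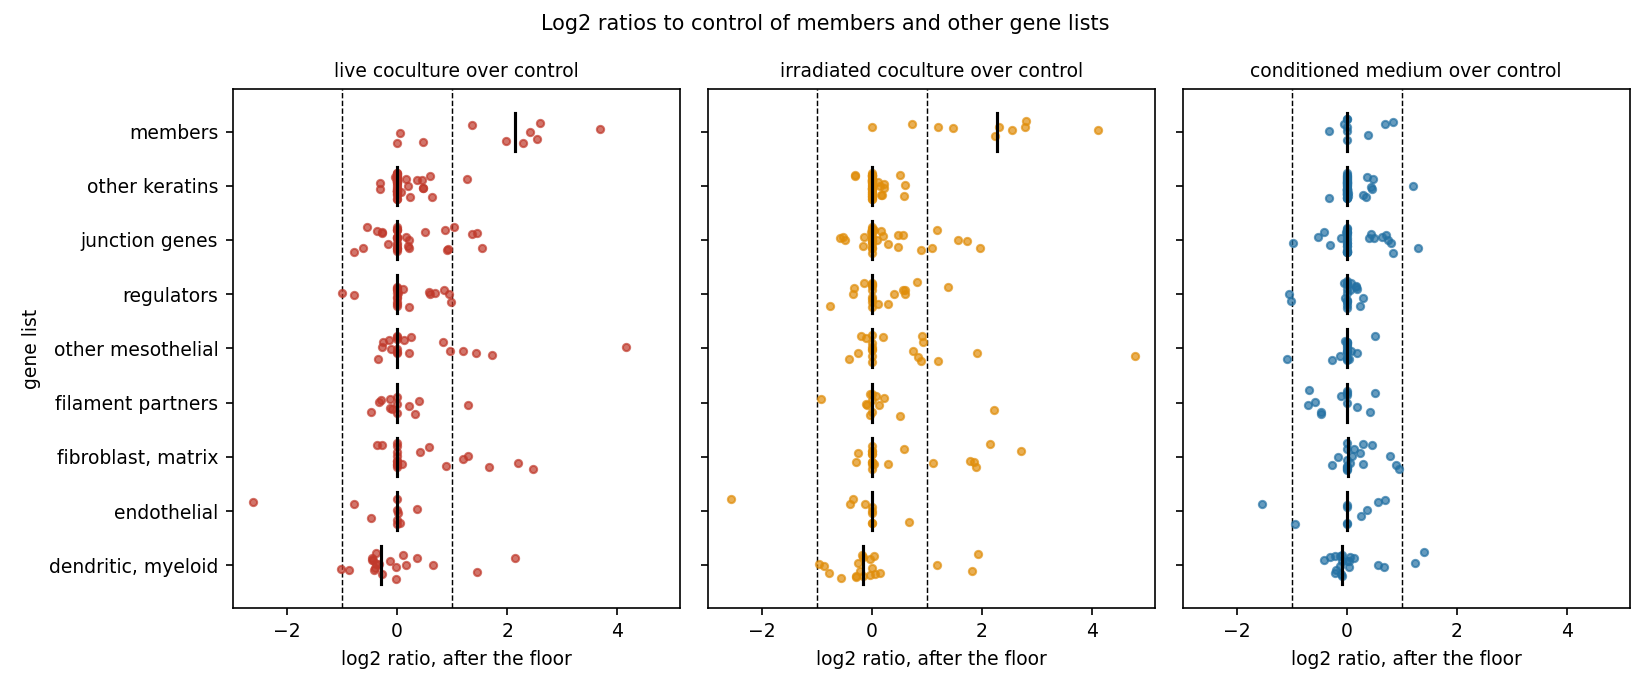
Log2 ratio to the control after the floor for each measured gene (points) of 9 lists, with the list median as a black bar and 2-fold as dashed lines, for the 3 treated arrays. The medians of the 10 genes described here are 2.14, 2.27 and 0.00, and those of the other 8 lists lie between -0.30 and 0.03.

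The genes most like Krt19 were sought by the Euclidean distance between log2 signals, floored and centred on each gene's mean, over the 4 arrays. Symbols of clone or model form, such as those ending in Rik, were skipped. The 5 nearest of the remaining genes outside the list were Trem1, Hilpda, Sox4, Trib1 and Tm4sf1. Trem1, an activating receptor of myeloid cells, was at distance 0.37, and Hilpda, a lipid droplet protein gene induced by hypoxia, at 0.38. Sox4, a transcription factor gene, was at 0.42, Trib1, a pseudokinase gene, at 0.45 and Tm4sf1 at 0.58. Trem1 had signals of 1260 in the live and 1262 in the irradiated coculture, 100.2 with conditioned medium and 92.8 in control BMDC. Trib1 had 831.5 in the live and 847.2 in the irradiated coculture, 17.8 with conditioned medium and 15.2 in control BMDC. These 5 genes were picked for their likeness to Krt19 on the same arrays, so their sharing its pattern was fixed by the choice. They include Trem1, a gene of myeloid cells, and Tm4sf1, which is on the list of mesothelial and ovarian surface markers. Which cells the signals came from was not tested. Of the genes described here, Krt8 was nearest to Krt19 (distance 1.21, the 13th of all genes with no symbol skipped). Then came Krt18 (1.44), Upk3b (1.63), Wt1 (1.76), Cdh1 (1.99) and Tjp1 (2.34). Msln, Epcam and Krt7 were at distances over 3.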

How the data were processed

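RNA of 4 sorted BMDC samples was measured on 1 Affymetrix array each. The deposited values are 1 intensity per probe set (signal, linear scale), made by the authors with GCOS 1.4 and MAS5, per the submitters' processing notes. The target of the scaling is not given in the sources used here. The mean without the lowest and highest 2% of signals lay between 149.4 and 149.5 on the 4 arrays, so the arrays were used as scaled. Because MAS5 takes mismatch from matched signal, dim probe sets have noisy ratios. Detection calls were not used. With 4 arrays, their number limits the precision.

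Of 45101 probe sets, 64 array controls were left out, 34945 had 1 gene symbol, 932 several and 9160 none in the platform annotation. Symbols matched RefSeq genes through Entrez identifiers for 34741 probe sets. For a gene with several probe sets, the one of highest mean log2 signal was read. Signals under the floor of 44.3 (50th percentile) were raised to it, and log2 ratios were taken. With 1 array per condition no test was run. The steps were tested on simulated data with known folds, put only into genes with control signals well above the floor. That test did not cover ratios that are bounds. Python 3.11.15, NumPy 2.4.6, pandas 2.3.3 and matplotlib 3.10.9 were used. Of each further gene list, up to 4 genes with the largest ratio to the control in either coculture, among those at least 2-fold apart, are named, with the 5 genes nearest to Krt19 besides. Vim, Ptprc, Itgax, H2-Aa, Flt3, Zbtb46, Pdpn, Krt80, Cpe, Fn1, Grhl2, Zeb1, Zeb2 and Col1a1 were named outside this rule, after their values were seen. The genes described and the lists were chosen with earlier results of these data known. Alternatives were floors at the 25th (12.9) and 75th (155.6) percentiles, quantile normalization, median centring, the mean over probe sets and a 3-fold threshold.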

Additional observations from a re-analysis of the deposited data

How the results depend on the processing

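With the floor at the 75th percentile (155.6), 3 genes (Krt8, Krt19 and Cdh1) were at least 2-fold higher than the control, and 3 than the conditioned medium, in each coculture, and Epcam no longer passed in irradiated over live coculture (0 genes). Of all genes, 1.48% in the live and 1.61% in the irradiated coculture were then higher than the control. Against the conditioned medium these shares were 0.841% and 0.967%. That floor lies above the coculture signals of Tjp1 and Msln and near those of Wt1, so their ratios shrink by construction. With the floor at the 25th percentile, 1 gene, Krt18, was counted as higher in the conditioned medium than in the control, against 5.98% of all genes. In irradiated over live coculture 0 genes passed at 3-fold or by the mean over probe sets. Of 72 counts under an alternative, the other 64 stayed within 1.5 times the reported count, including all of those under quantile normalization and median centring. Many of these 64 were counts of 0 that stayed at 0, among them every count of lower genes. A change from 7 to 9 genes also lay within that limit. Median centring moved the median of all genes above the floor in live coculture over control to -0.17, against -0.04 as deposited. No ratio of at least 2-fold changed sign. Epcam in live coculture over control, at 0.05, was -0.17 after quantile normalization and -0.08 after median centring, so it has no direction. No replicate could be left out, since each condition has 1 array. No paired analysis was possible because each condition has 1 array and the labels give no replicate numbers that could pair the arrays.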
